A study of Mus musculus with 20 samples.

Results

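The cytosolic ribosome is built from a large and a small subunit, each a frame of ribosomal RNA that carries a fixed set of proteins. The genes of those proteins were taken here as the protein-coding mouse genes whose symbol begins with Rpl or Rps and a digit, together with Rplp0, Rplp1, Rplp2 and Rpsa, without the Rps6k kinases and without symbols ending in a pseudogene mark. The rule found 86 genes among 53465 gene identifiers, and 7 further symbols fitted it but were annotated as pseudogenes and left out. Of the 86, 46 encode standard proteins of the large subunit and 31 standard proteins of the small subunit. Another 8 are paralogue forms, and Rps19bp1 encodes a protein that binds a ribosomal protein and is not itself a subunit protein. The low-count filter kept 84 genes and removed Rpl10l and Rpl39l.

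The RNA came from muscle of wild-type (WT) mice, and poly(A)-selected libraries were sequenced. Females and males were each sampled without and with training, which made 4 groups of 5 libraries and 20 in all. The labels name neither the muscle, the strain, the age, the training protocol, the time of sampling nor a batch, and do not tie a library to its own animal in words, so the p-values measure the spread between these libraries. Libraries held 22043145 to 38483572 estimated counts, of which the 86 genes took 0.856% to 1.38%. Summed over 8 myofibre markers, such as Acta1 and Ckm, the libraries lay between 107916 and 152802 CPM, a scale on which libraries of unlike depth can be compared, so the labelled tissue and the data match.

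Female non-trained library 1 stood apart. It had the most counts but the fewest genes with counts above 0 (18727, against 19806 to 21449 in the others). Its share of ribosomal protein counts was the highest (1.38%), and it had the highest value of all 20 libraries for 76 of the 84 genes. It also had the lowest summed level of all 20 libraries for macrophage markers (45.2 CPM, against 70.9 to 697 in the other 3 groups), fibro-adipogenic progenitor markers (112.9 CPM, against 311 to 1013), tendon markers (16.2 CPM, against 146.5 to 280 in the other 3 groups), endothelial markers (178.0 CPM) and Schwann cell markers (46.1 CPM). Its 4 satellite cell markers summed to 40.2 CPM, the highest of its group. Its 8 slow myofibre markers summed to 4941.6 CPM, also the highest of its group, while trained females reached 6214 CPM. The parts of cell makeup and of the low number of genes found in its ribosomal protein level were not tested. In bulk RNA a different mix of cells and a different amount of message per cell cannot be told apart. Comparisons that use this library are given with and without it.

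Ribosomal proteins are made in equal numbers for each new ribosome, and cells hold their messenger RNAs at high and roughly matched levels. Most of these messengers begin with a stretch of pyrimidines, the terminal oligopyrimidine tract, through which growth signalling by mTOR and the RNA-binding protein Larp1 controls their translation. In muscle, ribosome supply is a known part of growth, and a few subunit proteins have paralogues with tissue-restricted expression, of which Rpl3l, the striated muscle form of Rpl3, is the best known.

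The sequence around the annotated transcription start was searched for such a stretch. RefSeq promoters (GRCm38.p6) were at hand for 66 of the 86 genes, and the windows below, the 30 bases before the annotated start and the first 20 of the transcript, are those of genes described in the results. Each is printed from 5′ to 3′ on the gene's strand, with the longest run of C and T in capitals.
Rps6: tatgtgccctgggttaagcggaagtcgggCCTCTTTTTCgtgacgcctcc
Rplp0: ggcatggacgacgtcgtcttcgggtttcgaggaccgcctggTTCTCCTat
Rps18: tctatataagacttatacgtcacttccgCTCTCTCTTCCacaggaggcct
Rpl15: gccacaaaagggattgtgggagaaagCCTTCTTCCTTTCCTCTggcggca
Rps12: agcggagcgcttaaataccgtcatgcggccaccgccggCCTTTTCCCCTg
Rps10: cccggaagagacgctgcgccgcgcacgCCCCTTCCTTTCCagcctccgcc
Rpl22l1: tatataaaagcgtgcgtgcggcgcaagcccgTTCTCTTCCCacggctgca
Rpl3l: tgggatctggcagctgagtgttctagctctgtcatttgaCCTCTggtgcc
Rps27: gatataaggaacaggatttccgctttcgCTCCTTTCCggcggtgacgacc
Rps27rt: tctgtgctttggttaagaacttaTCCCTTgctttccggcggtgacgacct

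These windows lie at chr4:86857348-86857397 (minus strand) for Rps6, chr5:115559437-115559486 (plus) for Rplp0, chr17:33955646-33955695 (minus) for Rps18, chr14:18270967-18271016 (minus) for Rpl15, chr10:23787190-23787239 (minus) for Rps12, chr17:27635225-27635274 (minus) for Rps10, chr3:28805478-28805527 (plus) for Rpl22l1, chr17:24727796-24727845 (plus) for Rpl3l, chr3:90213629-90213678 (minus) for Rps27 and chr9:114982720-114982769 (minus) for Rps27rt. A run of at least 8 C or T stood in the window of 32 of the 66 genes (48.5%), against 22.8% of 26959 other genes with a promoter in the same table. The longest run was 17 bases in Rpl15, 13 in Rps10 and 11 in Rps18, each across the annotated start, and 5 in Rpl3l. The bases CCGGAAG, the core that ETS family factors bind, were in the 300-base promoter of 39.4% of the 66 genes on either strand, Rps6, Rps10, Rps18 and Rpl15 among them, and in 9.9% of the other genes. A match describes letters in a window and does not show binding. The window of Rps27rt, an intronless copy of Rps27 on another chromosome, shared a run of 19 bases with that of Rps27, while no other paralogue pair with both windows shared more than 7.

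Levels were compared between genes in the deposited TPM, a unit of transcripts that is corrected for length. Rplp0, the base of the stalk that engages the translation factors, was highest at 727 ± 95.2 TPM (SD, n = 20), followed by the stalk protein gene Rplp1 at 695 ± 83.998 TPM. Next came the small subunit genes Rps25 (607 ± 65.6 TPM) and Rps24 (598 ± 63.4 TPM). Rplp0 was above Rplp1 in 13 of 20 libraries, Rplp1 above Rps25 in all 20, and Rps25 above Rps24 in 15. The means of Rplp0 and Rplp1, and those of Rps25 and Rps24, differ by less than their SD. The lowest of the 86 were Rpl10l (0.028 TPM) and Rpl39l (0.040 TPM), both known for expression in testis, then Rpl12 (5.23 ± 1.75 TPM), Rps19bp1 (9.06 ± 1.57 TPM) and Rpl10 (14.03 ± 4.45 TPM).

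The low values of some standard subunit genes went with high values of near-identical gene copies. Mouse ribosomal protein genes have many processed pseudogenes, and RSEM, the program behind the deposited estimates, shares out, by estimation, a read that could belong to more than 1 gene. A search of annotated transcripts found 525 genes with a stretch at least 95% identical to at least 80% of a member's coding sequence, 509 of them pseudogenes, and 75 of the 86 genes had such a copy. Rpl12, a large subunit protein of the stalk base, held 1.07% of the TPM summed over itself and its 6 copies, and the pseudogene Gm10275 alone stood at 480 TPM. Rpl10, which completes the large subunit late in its assembly, held 2.62% of its sum beside Rpl10-ps3 at 304 TPM. Rpl5, which carries the 5S ribosomal RNA into the large subunit, held 3.54% beside Gm15500 at 411 TPM. Rps12, a small subunit protein, held 4.54% beside Rps12l1 at 399 TPM. Rps6, the small subunit protein that S6 kinase phosphorylates, held 44.9% beside Rps6-ps4 at 210 TPM.

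The copies changed the picture of how even the set is. Over the 77 standard subunit genes alone, means ran from 5.23 to 727 TPM, a 139-fold range, with quartiles at 192 and 416 TPM. With each gene's copies added, they ran from 67.7 to 729 TPM, a 10.8-fold range, with quartiles at 328 and 506 TPM. At least 90% of the sum lay in the gene itself for 48 of the 86, among them Rplp0 and Rpl8, and under 50% for 20. How many of the reads placed on copies came from the parent genes was not tested, so single-gene values of those 20 are uncertain. Members were not counted as copies of one another. These shares therefore do not cover the split between Rps27 and Rps27rt, whose coding sequences are identical, and it is uncertain too.

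**Figure D1:**
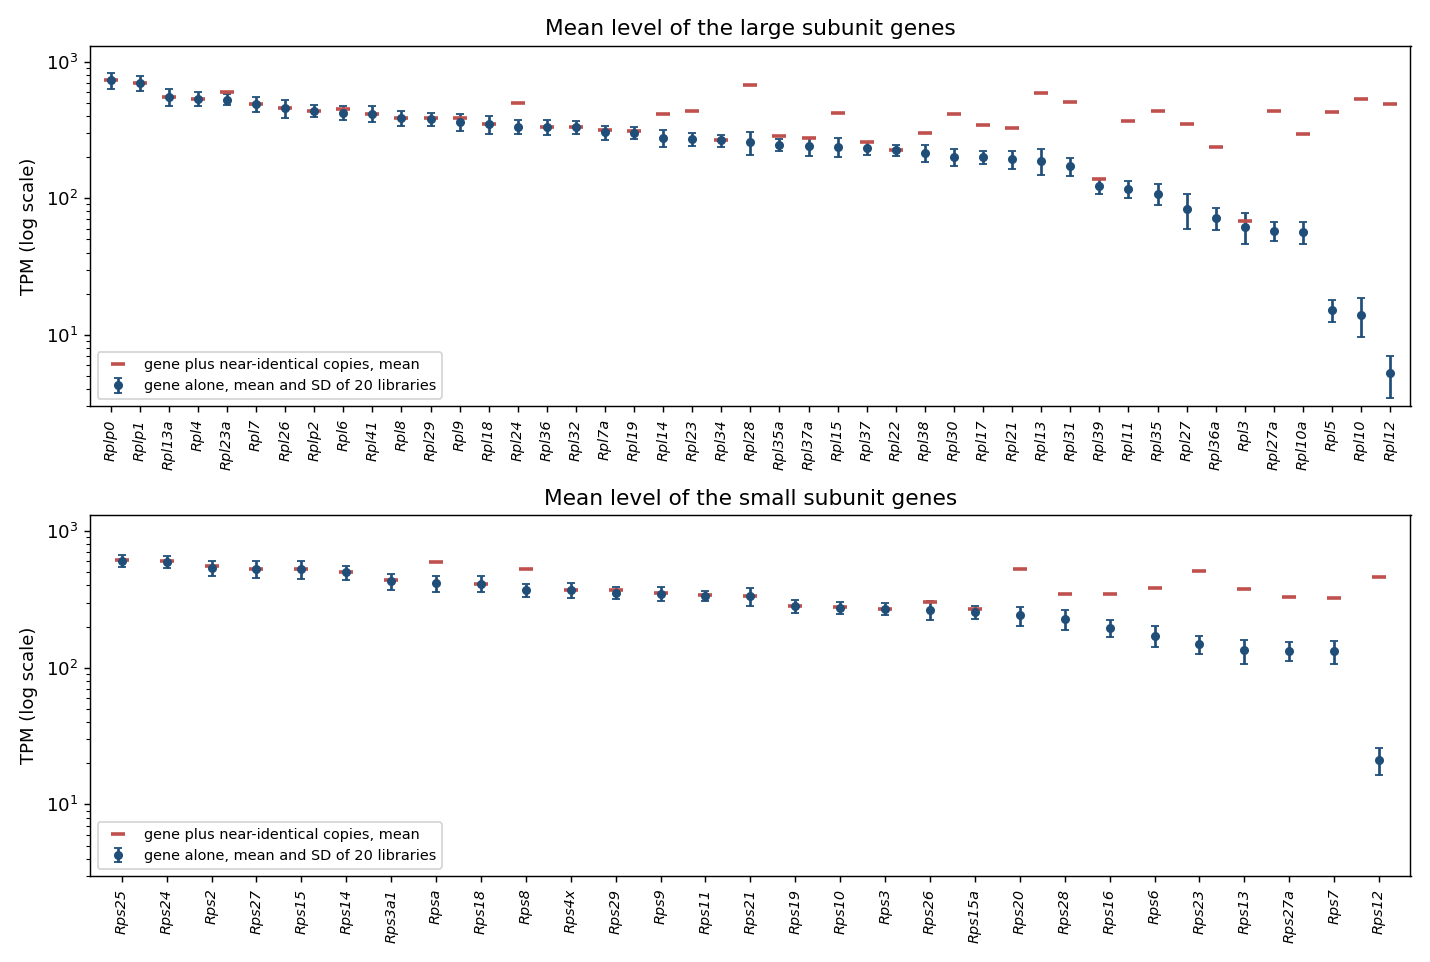
Mean TPM of 45 large subunit genes (top) and 29 small subunit genes (bottom) on a log scale, with points and bars for the gene alone (mean and SD of 20 libraries) and red marks for the gene plus its near-identical copies. The drop at the right end, down to 5.23 TPM for Rpl12, is not seen in the red marks, which stay at or above 67.7 TPM.

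The genes varied together from library to library. Within groups, the median correlation over 3486 pairs of the 84 genes was 0.80 (Pearson) and 0.59 (Spearman) across 20 libraries, as a description of libraries that share depth and scaling. Without female non-trained library 1 these medians were 0.50 and 0.46. Over all 15709 genes tested the median was 0.0, and over the 78 genes of the mitochondrial ribosome, a separate particle inside mitochondria, it was 0.45, and 0.37 without that library. With copies added to their genes, the cytosolic set reached 0.89, and 0.69 without library 1. Large and small subunit genes moved alike: their medians in library 1 lay 0.60 and 0.62 above the 20-library means on the log2 CPM scale, and in female trained library 2, the next highest, 0.29 and 0.30 above.

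Individual genes differed in how closely they followed the rest. Rpl8, a large subunit protein, correlated with the median of the other members at 0.99 (0.95 without library 1) and Rps18, of the small subunit, at 0.98 (0.96). The least coherent over 20 libraries were Rpl10 (-0.20), Rpl12 (-0.13), Rps19bp1 (0.19), Rps12 (0.31), Rpl3 (0.35) and Rpl7l1 (0.48). Without library 1 the order was another: Rpl3 (-0.03), Rpl7l1 (0.01), Rpl10 (0.02), Rps27rt (0.13) and Rps19bp1 (0.23) were lowest, and Rpl12 and Rps12 stood at 0.46 each. Rpl5, at 3.54% of its sum with copies, was also among the lower ones, at 0.61 (0.375 without library 1). A small share did not go with a low correlation throughout: Rpl27a, at 13.4% of its sum, correlated at 0.87, while Rpl3 held 91.3% of its sum. Among genes outside the rule, those most like the members' median over 20 libraries were the copy Rpl10a-ps1 (0.97), Rack1 (0.97), the elongation factor gene Eef1b2 (0.95), the copies Gm10275 and Gm7536 (0.95 and 0.94), the nascent chain factor gene Btf3 (0.95), Pomp (0.94), Pfdn5 (0.94), Hint1 (0.94) and Sem1 (0.94). Without library 1 the 10 nearest were Pomp (0.93), Macrod1, the initiation factor gene Eif3h, Gm10275, Rack1, Bola2, Btf3, Jsrp1, the fast muscle troponin gene Tnni2 and Gm7536, the last 9 at 0.88 to 0.89. Rpl10a-ps1, Eef1b2, Pfdn5, Hint1 and Sem1 were no longer among them, with Eef1b2 at 0.82 and Sem1 at 0.75. Rack1 is itself a small subunit protein under another name. Fau, which encodes another small subunit protein under another name, correlated at 0.72 and stood at place 471 of 15625.

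**Figure D2:**
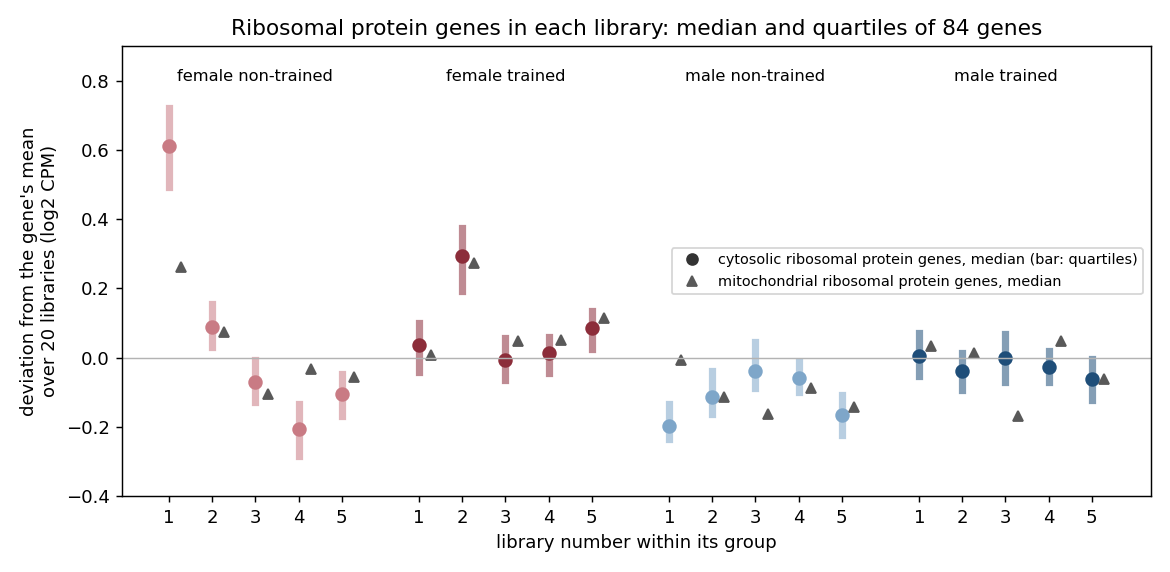
For each library, the median (point) and quartiles (bar) of the 84 genes' deviations from their own 20-library means in log2 CPM, with grey triangles for the median of the 78 mitochondrial ribosomal protein genes. Female non-trained library 1 lies at 0.61, female trained library 2 at 0.29, and the other 18 libraries between -0.21 and 0.09.

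By group mean, trained females were highest for 45 of the 84 genes and non-trained females for 27, and non-trained males were lowest for 70. Without female non-trained library 1, trained females were highest for 69 genes and non-trained males lowest for 51. The groups were close: the share of counts was 1.02% ± 0.204 (SD, n = 5) in non-trained females (0.929% ± 0.0458 over the 4 other libraries), 1.01% ± 0.0995 (n = 5) in trained females, 0.923% ± 0.0444 (n = 5) in non-trained males and 0.970% ± 0.0393 (n = 5) in trained males. The ranges of these 4 shares overlap. On the TMM-scaled CPM used for the tests, the sum of the 86 genes was 9835 to 11838 CPM in trained females, above all non-trained males (8543 to 9613 CPM) and all trained males (9255 to 9628 CPM). Non-trained females, at 8534 to 14815 CPM, overlapped each of the other groups.

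No ribosomal protein gene passed an adjusted p of 0.05 for training in females (edgeR's quasi-likelihood test, Benjamini-Hochberg over all genes), and 0.0% of all 15709 genes were called. None of the 84 had an unadjusted p under 0.05 (8.57% of all genes did). DESeq2 also called 0 members, and 25 genes in all. Of the 84, 33 lay above 0 and 51 below, with a median log2 difference of -0.01 (0.00 over all genes). Without female non-trained library 1 the picture turned: 78 lay above 0 and the median was 0.15. In that fit 0 members and 0.0% of all genes were called, with a smallest adjusted p of 0.21 among the members. There 23 of the 84 had an unadjusted p under 0.05, a share not counted over all genes in that fit. Leaving out any other library of the 2 groups gave a median of -0.08 to 0.00, so the shift to 0.15 rested on library 1. Summed over 7 adipocyte markers, trained females lay wholly higher (262.6 to 380 CPM against 152.8 to 259 CPM), and over 4 satellite cell markers wholly lower (24.9 to 27.4 CPM against 30.8 to 40.2 CPM), with every marker above 0 in each library. The part of those cells in the members' values was not tested. With copies added and library 1 left out, 83 of 84 lay above 0 with a median of 0.15, again with 0 called. In the fit without library 1 the smallest p belonged to Rpl22l1, the paralogue of Rpl22, at 0.43 ± 0.093 (SE) on the log2 scale, a gene named after its value was seen. Its CPM in non-trained females were 62.0, 31.2, 26.1, 24.3 and 25.1, library 1 first, and in trained females 36.7, 39.6, 33.3, 34.3 and 35.9. All 5 trained values lie above the last 4 and below library 1.

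With all 20 libraries, the members' differences in that comparison were at most 0.22 from 0 on the log2 scale. By p, the higher end was led by Rpl35a (0.17 ± 0.11 SE, adjusted p = 0.70 by edgeR), Rpl23a (0.13 ± 0.096) and Rpl11, a partner of Rpl5 in the 5S particle (0.13 ± 0.11), and also held Rpl3l, Rpl3, Rpl10a, Rplp2, Rps13, Rpl34 and Rpl7l1. The lower end was led by Rps7, which is needed to process the small subunit RNA (-0.19 ± 0.11, adjusted p = 0.67), Rpl9 (-0.14 ± 0.12) and Rps23, at the decoding site (-0.13 ± 0.12), and also held Rpl27, Rpl36al, Rps27l, Rpl31, Rpl28, Rps6 and Rpl4. Rps7 gave 75.7, 48.2, 50.8, 47.8 and 52.1 CPM in non-trained females and 44.8, 59.1, 45.9, 41.9 and 48.3 CPM in trained females, and the groups overlap. Without library 1 the 3 genes that led the higher end stood at 0.27 (Rpl35a), 0.24 (Rpl23a) and 0.21 (Rpl11), whereas Rps7 stood at -0.05, and Rpl9 (0.04) and Rps23 (0.06) lay above 0.

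Training in males also gave 0 calls among the 84, with 0.0% of all genes called. An unadjusted p under 0.05 was reached by 1 member, against 4.3% of all genes. In the fit without female non-trained library 1, which is in neither group but shares the estimate of spread, 7 members reached it. DESeq2 called 0 members, and 7 genes in all. Here 73 of 84 lay above 0 with a median of 0.08, 30 of 31 small subunit genes and 39 of 46 large subunit genes among them. The smallest p was that of Rps29, a small zinc-binding protein of the small subunit. Its CPM were 72.6, 69.8, 68.2, 74.9 and 66.4 in non-trained males and 87.9, 78.8, 81.6, 81.7 and 81.6 in trained males, with no overlap. The log2 difference was 0.23 ± 0.096 (SE), with an adjusted p of 0.99 by edgeR, so the difference did not pass over all genes. The higher end further held Rps12, Rplp2, Rpl29, Rps15a, Rpl3, Rpl11, Rps18, Rps7 and Rps10, at 0.13 to 0.30. The lower end held Rpl12 (-0.27 ± 0.20), Rpl10a (-0.20 ± 0.15), Rps27l, Rpl5 and Rpl27 (-0.09 to -0.16) and 5 genes within 0.04 of 0, Rpl15, Rpl22, Rpl3l, Rpl4 and Rps14. In females Rps29 gave 70.9 to 90.9 CPM with training and 66.6 to 106 without, and the groups overlap.

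For 6 of the 84 genes all 5 trained male libraries lay above all 5 non-trained ones, which 0.535% of all genes tested did. These were the stalk genes Rplp1 and Rplp2 and the small subunit genes Rps10, Rps21, Rps28 and Rps29. No member lay wholly below, which 0.554% of all genes tested did. Rplp2, whose product pairs with Rplp1 on the stalk, gave 93.5, 95.3, 99.0, 102 and 98.4 CPM in non-trained males and 111, 105, 115, 112 and 108 CPM in trained males. Rps21 gave 63.3 to 70.9 CPM without and 71.8 to 75.7 CPM with training, a gap of under 1 CPM between the groups. Since members move together within a library, these 6 are not 6 separate observations.

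Averaged over both sexes, training gave 66 of 84 genes above 0, a median of 0.04 and 0 at an unadjusted p under 0.05. Both edgeR and DESeq2 called 0 members, where edgeR called 0.0127% of all genes and DESeq2 30 genes in all. Without female non-trained library 1, 80 lay above 0 with a median of 0.12. There 38 of the 84 had an unadjusted p under 0.05, a share not counted over all genes in that fit. Still 0 passed the adjustment (smallest adjusted p 0.19, Rps28), where 0.0125% of all genes were called. The median standard error fell from 0.085 to 0.056 without that library. The interaction term, the training effect of males less that of females, called 0 of 84 and 0.0% of all genes. DESeq2 called 0 members, and 2 genes in all. In edgeR an unadjusted p under 0.05 was reached by 1 member, against 4.18% of all genes. That member was Rps7 (0.36 ± 0.16 SE), whose CPM in males were 46.9, 49.0, 52.3, 47.6 and 51.5 without and 54.3, 53.2, 63.0, 57.0 and 49.1 with training. Without library 1 its term was 0.22 ± 0.12, and with its copies added 0.13 ± 0.14. The members' median interaction term was 0.09 with library 1 and -0.05 without it, so its sign rested on that library. Without library 1, 3 members had an unadjusted p under 0.05.

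**Figure D3:**
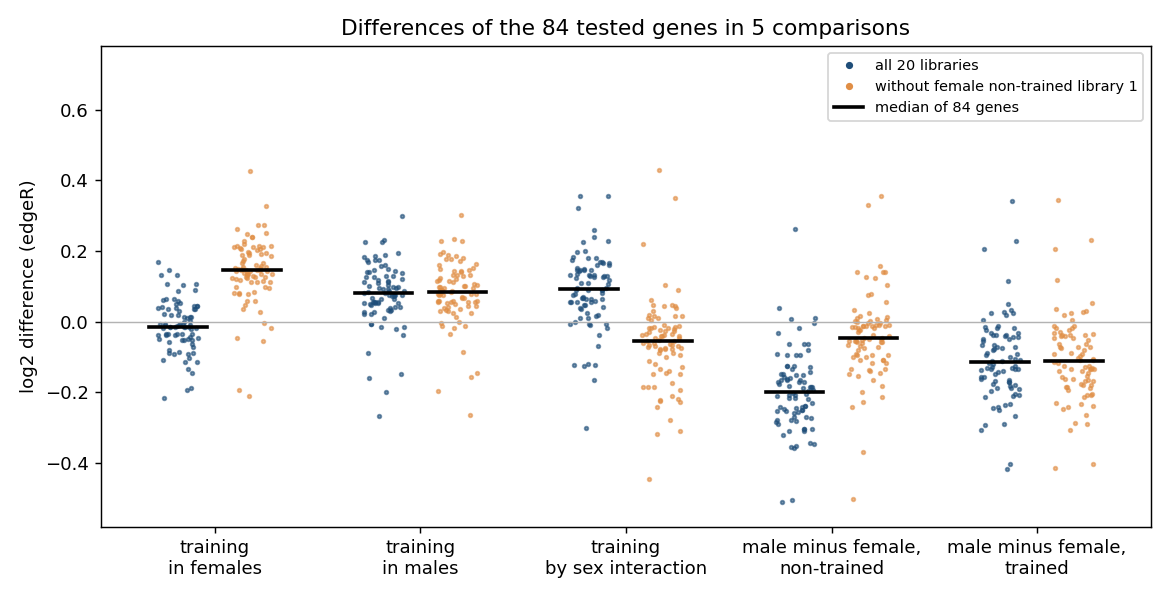
Log2 differences of the 84 genes in 5 comparisons (x axis), with all 20 libraries (blue) and without female non-trained library 1 (orange), a point per gene and a black line at the median. In females the median for training moves from -0.01 to 0.15 and for sex without training from -0.20 to -0.05, while the 2 comparisons that do not use that library keep medians of 0.08 and -0.11.

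Between the sexes without training, most ribosomal protein genes had lower values in males: 80 of 84 lay below 0, with a median log2 difference of -0.20 (0.00 over all genes). Markers of other cells moved with sex here. Summed over 10 macrophage markers, non-trained females gave 45.2 to 134.9 CPM and non-trained males 153.6 to 362 CPM, and over 4 satellite cell markers 30.8 to 40.2 against 17.4 to 29.0 CPM, both without overlap. The 6 fibro-adipogenic progenitor markers summed to 112.9 to 639 against 615 to 1013 CPM. The 8 slow myofibre markers summed to 1180.6 to 4941.6 against 354.6 to 1614.5 CPM, and these groups overlap. All of these markers were above 0 in each library, and their part in the members' difference was not tested. Only Rps6 passed, 1 of 84, where 5.21% of all genes were called. An unadjusted p under 0.05 was reached by 21 of the 84, against 21.7% of all genes. Without female non-trained library 1, 63 lay below 0 with a median of -0.05, and 4 had an unadjusted p under 0.05. Rps6 was again the 1 member called, where 3.7% of all genes were called.

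Rps6 is on GRCm38 chromosome 4 from 86854660 to 86857412, minus strand, and its start window is printed above. It gave 152, 120.1, 98.8, 97.6 and 86.3 CPM in non-trained females and 73.7, 70.8, 84.8, 82.1 and 79.9 CPM in non-trained males. The groups did not overlap and no other member was wholly lower in males there, where 2.39% of all genes were. Trained females gave 102, 116, 91.9, 100.5 and 111 CPM and trained males 77.7, 80.03, 101, 86.4 and 89.1 CPM, which overlap. The log2 difference without training was -0.50 ± 0.12 (SE, adjusted p = 0.016 by edgeR) and with training -0.27 ± 0.12 (adjusted p = 0.20). Without library 1 the first was -0.37 ± 0.094 (adjusted p = 0.033). Whether these differ is the interaction, at 0.24 ± 0.17 (adjusted p = 0.999).

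The call for Rps6 did not hold for the gene together with its copies. Rps6-ps4, on chromosome 2 from 75191073 to 75191822, gave 120, 100.2, 84.02, 82.0 and 99.8 CPM in non-trained females and 93.1, 102, 95.5, 96.9 and 100.2 CPM in non-trained males, and the groups overlap. Rps6 plus its 11 copies gave 273, 221, 183, 179.8 and 187 CPM in non-trained females and 167, 173, 180.5, 179.4 and 180.2 CPM in non-trained males. The difference of the sums was -0.24 ± 0.10 (SE, adjusted p = 0.16 by edgeR), and -0.13 (adjusted p = 0.42) without library 1. Rps6 held 46.3% to 55.9% of the summed CPM in non-trained females and 40.9% to 47.0% in non-trained males. The share in trained libraries was 46.9% to 55.9% in females and 44.2% to 49.5% in males. Whether the division of reads or the gene itself differs between the sexes was not tested.

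**Figure D4:**
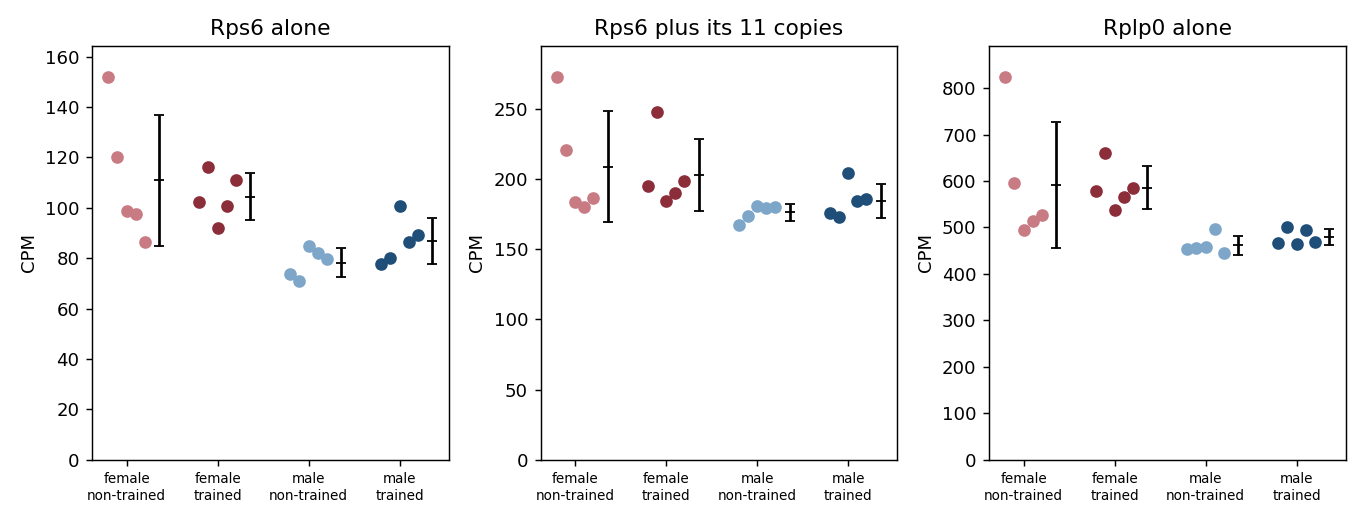
CPM of Rps6 alone (left), Rps6 plus its 11 near-identical copies (middle) and Rplp0 alone (right) in each library of the 4 groups, with the mean and SD (n = 5) beside the points, on axes that start at 0. Rps6 alone separates non-trained males (70.8 to 84.8 CPM) from non-trained females (86.3 to 152 CPM), and the summed values overlap.

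Rplp0 came next. It gave 825, 596, 495, 514 and 528 CPM in non-trained females and 453, 456, 459, 496 and 444 CPM in non-trained males, where male library 4 lies just above the lowest female library. Its log2 difference was -0.36 ± 0.11 (SE, adjusted p = 0.052 by edgeR) without training and -0.29 ± 0.11 (adjusted p = 0.11) with training. Without library 1 the difference without training was -0.21 ± 0.070 (adjusted p = 0.096). Trained females gave 579, 661, 537, 566 and 586 CPM and trained males 467, 501, 465, 495 and 468 CPM, with no overlap. Rplp0 has few reads on copies (825 CPM alone and 828 CPM with them in its highest library). Without female non-trained library 1, Rplp0 was called among trained libraries (-0.29, adjusted p = 0.012 by edgeR). That library is not in the trained comparison but shares its estimate of spread. Rplp0 was the 1 member called there, where 7.76% of all genes were called. Rps12 gave 8.25, 11.2, 6.71, 7.47 and 6.21 CPM in non-trained females and 5.97, 5.47, 6.61, 4.77 and 5.14 CPM in non-trained males, at -0.51 ± 0.16 (adjusted p = 0.062) and -0.50 ± 0.17 (adjusted p = 0.11) without library 1, and it is among the genes with nearly all of their sum on copies.

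The other members with the smallest p in this comparison had differences of similar size and did not pass: Rpl31 (-0.35 ± 0.13 SE), Rps2 (-0.31 ± 0.11), Rpl9 (-0.32 ± 0.12), Rpsa, known also as a laminin receptor (-0.30 ± 0.12), Rpl6 (-0.26 ± 0.10), Rpl38 (-0.31 ± 0.12) and Rpl29 (-0.27 ± 0.11), with adjusted p of 0.12 to 0.14 by edgeR. Without library 1 these 7 differences were -0.12 to -0.18, among them Rps2 at -0.16 and Rpsa at -0.14, with adjusted p of 0.32 to 0.38. Rpsa gave 385, 274, 231, 216 and 221 CPM in non-trained females and 205, 217, 226, 216 and 210 CPM in non-trained males. The first 3 female libraries lie above all male values, and the other two lie among them. With all 20 libraries only Rpl3, Rpl35a, Rps14 and Rpl12 stood on the higher side, of which Rpl35a, Rps14 and Rpl12 were within 0.04 of 0. Without library 1, 21 members did.

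Several members that left the pack came back to it once their copies were added. In non-trained males against females the 84 differences ran from -0.51 to 0.26 for the genes alone and from -0.36 to 0.25 with copies, and Rps12 moved from -0.51 to -0.20. Without library 1 these ranges were -0.50 to 0.36 and -0.24 to 0.34. With training in males they ran from -0.27 to 0.30 alone and from -0.09 to 0.27 with copies. There Rpl12 moved from -0.27 to -0.00, Rpl10a from -0.20 to 0.07, Rpl5 from -0.16 to 0.06, Rpl27 from -0.15 to 0.14 and Rps12 from 0.30 to 0.12. These 5 were picked for their distance from the median, so the shifts are given as a description.

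Between trained males and trained females, 73 of 84 genes lay below 0 with a median of -0.11. Of them 0 were called by edgeR and 0 by DESeq2, where edgeR called 5.6% of all genes and DESeq2 1371 genes in all. An unadjusted p under 0.05 was reached by 6 of the 84, against 20.7% of all genes. In the fit without female non-trained library 1 it was reached by 23, a share not counted over all genes in that fit. All 5 male libraries lay below all 5 female libraries for 8 genes, which 3.46% of all genes tested did, among them Rpl15, Rpl23a, Rpl26, Rpl7 and Rplp0 of the large and Rps2 of the small subunit. Rps2, near the messenger entry of the small subunit, gave 349 to 436 CPM in trained females and 311 to 324 CPM in trained males. By p, the lower end was led by Rplp0, Rps13 (-0.42 ± 0.16 SE, adjusted p = 0.14 by edgeR, and -0.13 with its copies), Rpl3l (-0.25 ± 0.10, adjusted p = 0.15), Rps6 and Rpl23a (-0.21 ± 0.096), followed by Rpl10a, Rps2, Rpl5, Rpl26 and Rps3. Above 0 stood Rpl3, Rps7 (0.20 ± 0.11, and -0.01 with its copies) and Rpl10 (0.23 ± 0.28), and Rps20, Rpl32, Rps27rt, Rps9, Rps28, Rps27 and Rps14 at 0.12 or less. No member was wholly higher in males, where 3.92% of all genes tested were. Female trained library 2 carried part of the shift, since the median was -0.06 without it. The macrophage markers summed to 70.9 to 147.0 CPM in trained females and 123.2 to 697 CPM in trained males. The fibro-adipogenic progenitor markers summed to 311 to 590 against 546 to 806 CPM, and the satellite cell markers to 24.9 to 27.4 against 24.0 to 30.9 CPM. Each of these ranges overlaps, and the part of those cells in the members' difference was not tested.

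Rpl3, at the peptidyl transferase centre of the large subunit, ran against the rest. In non-trained males it gave 46.8, 57.9, 51.7, 51.9 and 53.2 CPM and in non-trained females 55.1, 37.0, 35.1, 44.5 and 46.5 CPM, a log2 difference of 0.26 ± 0.14 (SE, adjusted p = 0.29 by edgeR), and of 0.36 ± 0.14 (adjusted p = 0.18) without library 1. In trained libraries it gave 47.3, 54.3, 89.6, 57.1 and 57.6 CPM in males and 41.2, 48.8, 50.1, 46.5 and 54.7 CPM in females, a difference of 0.34 ± 0.14 (adjusted p = 0.17). Neither passed, and the groups overlap in both. Male trained library 3, at 89.6 CPM, is the highest of all 20, and without it the difference was 0.16 (adjusted p = 0.53). That library also holds the most macrophage marker signal (697 CPM, against 45.2 to 362 in non-trained groups). The part of those cells in its Rpl3 level was not tested.

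Among the paralogue pairs is that of Rpl3l, the striated muscle form, with Rpl3. Rpl3l, on chromosome 17 from 24727820 to 24736143, stood at 404 ± 35.4 TPM (SD, n = 20) and Rpl3 at 61.8 ± 15.7 TPM, so Rpl3l made up 86.7% ± 3.49 of their sum. Their coding sequences are 74.4% identical over 1189 aligned bases. The share of Rpl3l was 89.0, 90.4, 89.7, 87.5 and 87.3% in non-trained females, 89.8, 89.8, 87.9, 88.1 and 87.4% in trained females, 88.0, 84.9, 86.1, 85.8 and 84.5% in non-trained males and 88.4, 85.4, 74.2, 85.5 and 84.3% in trained males. Male values are mostly lower, and the sexes overlap in both training states.

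The log2 ratio of Rpl3l to Rpl3 counts was lower in males by -0.39 without training (exact two-sided permutation p = 0.024, adjusted p = 0.25 over 24 tests) and by -0.57 with training (exact p = 0.032, adjusted p = 0.25). Training moved it by -0.04 in females (exact p = 0.71) and by -0.22 in males (exact p = 0.50). Without male trained library 3 the change in males was 0.00 (exact p = 0.98) and the sex difference with training -0.35 (exact p = 0.056, adjusted p = 0.44). Leaving out female non-trained library 1 gave a sex difference without training of -0.39 (exact p = 0.032, adjusted p = 0.19). Each exact test of 5 with 5 libraries has 0.0079 as its smallest possible p. No ratio of any pair passed the adjustment. The smallest exact p was that of Rpl7l1 to Rpl7 between trained males and females (0.16 higher in males, exact p = 0.016, adjusted p = 0.25). Of the remaining pairs, the smallest was Rps27l to Rps27 with training in males (-0.22, exact p = 0.063, adjusted p = 0.38). When female non-trained library 1 was left out, the smallest was Rpl22l1 to Rpl22 with training in females (0.34, exact p = 0.0079, adjusted p = 0.19), the smallest p that 5 with 4 libraries can give.

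The other forms ranged from the major to the minor partner. Rpl36al, an autosomal form of the X-linked Rpl36a, made up 68.0% ± 3.49 (SD, n = 20) of its pair, with 153 against 72.0 TPM. That share depends on the division of reads, since Rpl36a held 30.5% of its sum with copies. With the copies of both added, the sums were 236 TPM for Rpl36a and 217 TPM for Rpl36al, and Rpl36al made up 48.0% ± 2.43, over 50% in 3 of 20 libraries. Rpl22l1 made up 33.4% ± 3.14 of its pair with Rpl22 (114 and 225 TPM), and Rps27l made up 23.0% ± 2.40 of its pair with Rps27 (157 and 530 TPM). Rpl7l1, which takes part in assembly of the large subunit, made up 3.31% ± 0.35 beside Rpl7 (16.5 and 489 TPM). Rps27rt made up 9.07% ± 3.59, but its coding sequence is identical to that of Rps27 over its whole length, so this split is an estimate. The lowest library stood at 4.10%. Rpl10l and Rpl39l averaged 0.28% and 0.03% of their pairs and were not tested, and Rps4l is annotated as a pseudogene.

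**Figure D5:**
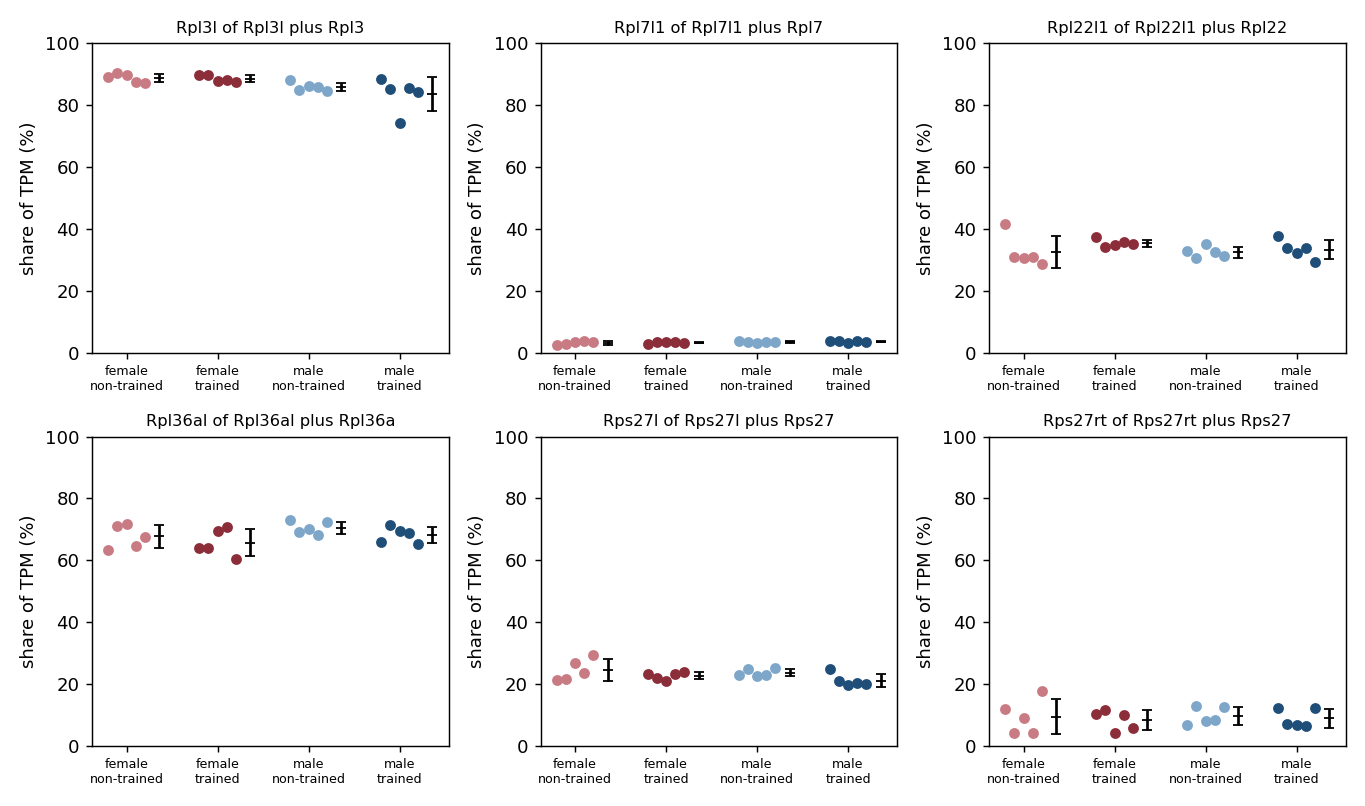
Share of the second gene in the TPM of 6 paralogue pairs, for each library in the 4 groups, with the mean and SD (n = 5) beside the points. Rpl3l is the major form in every library (74.2% to 90.4%), Rpl36al is so for the genes alone and made up 48.0% on average once copies were added, and the other 4 are minor forms.

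Genes with and without a pyrimidine run of at least 8 bases in their start window had similar values. The median TPM was 256 with such a run (31 genes tested) and 240 without it (33 genes tested), and the median log2 difference for training in males was 0.09 against 0.08. Between the sexes without training it was -0.20 against -0.22, and -0.02 against -0.07 without female non-trained library 1, given as a description with no test.

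No gene in the lists of ribosome production and translation passed for training in either sex. Of 40 ribosome assembly genes, 38 lay below 0 with training in females (median -0.11) and 23 in males (median -0.01), and 0 were called. With female non-trained library 1 left out, 33 lay below 0 in females (median -0.07). The smallest p in females was that of Rrp12, an export and processing factor, at -0.28 ± 0.070 (SE, adjusted p = 0.34 by edgeR), and -0.27 ± 0.074 (adjusted p = 0.26) without that library. Of 16 genes of RNA polymerase I, which transcribes ribosomal RNA, 14 lay below 0 with training in females (10 without library 1) and 9 in males, with 0 called. Of 19 growth signalling genes 0 were called with training, and Larp1 stood at -0.22 ± 0.076 (adjusted p = 0.47) in females. Of the 78 mitochondrial ribosomal protein genes, 62 lay above 0 with training in females and 65 in males (medians 0.05 and 0.09), with 0 called. Without library 1, 71 lay above 0 in females (median 0.10), and 0 genes of any list were called for training.

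Between the sexes some genes of these lists were called, where 5.21% of all genes were called without training and 5.6% with it. Of 35 initiation factor genes 4 were lower in non-trained males, Eif2s3x (X-linked, -0.80 ± 0.066 SE), Eif4g2, Eif2b1 and Eif1ax, and Pabpc1, the poly(A)-binding protein, was higher (0.54 ± 0.11, adjusted p = 0.0064 by edgeR). In trained males Pabpc1 and Eif3a were higher and Eif2s3x lower. Among 9 elongation factor genes Eef1a1 was higher in males without training (0.51 ± 0.12, adjusted p = 0.020). With training 3 were higher in males, Eef1a1 (0.44 ± 0.12, adjusted p = 0.041), Eef2k, the kinase of elongation factor eEF2 (0.47 ± 0.13, adjusted p = 0.036), and Eif5a2 (1.01 ± 0.28, adjusted p = 0.041). Without library 1, Eif1ax was no longer called, and Eef1a1 without training stood at 0.43 ± 0.12 (adjusted p = 0.053). In that fit 2 more calls appeared by edgeR. Eef2k was higher in non-trained males (0.52 ± 0.12, adjusted p = 0.018) and Eef1b2 lower in trained males (-0.31 ± 0.071, adjusted p = 0.013).

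Eef1a1, Pabpc1 and Eif2s3x are also in a list of 21 other messengers with a terminal pyrimidine tract. In that list 15 of 21 lay below 0 in non-trained males, with a median of -0.09, and 11 of 21 without library 1, with a median of -0.00. In trained males 14 of 21 lay below 0 with a median of -0.07, with and without library 1. Mitochondrial ribosomal protein genes lay below 0 in males for 73 of 78 without training (median -0.15, 2 called lower, Mrpl27 and Mrpl18) and 68 of 78 with training (median -0.12, 4 called lower). Without library 1, 65 of 78 lay below 0 without training (median -0.09) and 0 were called, while 68 did with training and 5 were called. Of the other lists, the assembly gene Utp14a was lower and the growth signalling gene Mxd4 higher in non-trained males, and no gene was called between trained males and females. With library 1 left out, 3.7% of all genes were called without training and 7.76% with it. In that fit Polr1a, the largest subunit of RNA polymerase I, and Mycn were also lower in non-trained males, and Rrp12 was higher and Mycn lower in trained males.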

How the data were processed

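For each library the authors deposited a gene table that holds expected counts (RSEM estimates, often not whole) and TPM, per the file headers. The submitters' processing notes name GRCm38 and, without their roles, RSEM 1.3.1, STAR 2.5.1, limma, edgeR, cutadapt and Trim Galore. For the annotation release, nothing is stated in the labels. Of 53465 identifiers, 53360 matched GENCODE M21, which gave symbols and coordinates, and unmatched ones held 0.00673% of counts. Further samples of this series were not used here.

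Expected counts were rounded. filterByExpr (minimum count 10) left 15709 genes. Libraries were scaled by TMM, and the 4 groups fitted together in edgeR 4.0.16 (robust quasi-likelihood, 16 residual degrees of freedom, R 4.3.3), with calls at a Benjamini-Hochberg adjusted p of 0.05 over all genes. CPM were computed on library sizes after TMM, and their log2 values with a prior count of 2. Fold changes and p-values come from that fit, levels between genes from the deposited TPM. Paralogue ratios are log2 ratios of expected counts with 0.5 added, tested by exact permutation. Correlations use log2 CPM as deviations from group means. Copies were found with blastn 2.17.0 (at least 95% identity over 80% of the coding sequence), each assigned to 1 member. Sequences come from RefSeq promoters on GRCm38.p6. The procedure was tested on simulated counts.

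The members and gene lists were chosen with earlier results of these data known. The text names every member past the threshold, members with the smallest p in each direction, the 5 highest and 5 lowest by TPM, the paralogues, the genes removed by the filter and the 10 most similar genes. Alternatives were DESeq2 1.42.0, limma-voom (limma 3.58.1), RLE factors, library size alone, TMM without ribosomal protein and mitochondrial DNA genes, no filter, a stricter filter (1 CPM in 5 libraries and a mean of 20 counts), only the groups compared, and each library left out. A few of these genes are left unreported and are not drawn in the plot of levels. Summing copies (for paralogue shares too), and leaving out female non-trained library 1 in every comparison and gene list, were added after the data were seen.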

Additional observations from a re-analysis of the deposited data

Results flagged for a closer look

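Of 52 groups of 5 values (library totals for the set, paralogue shares and CPM of described genes), 7 held a library whose gap to its nearest neighbour, over the range of its group, passed Dixon's 95% critical value of 0.71. Chance flags about 1 in 20 groups, and the tested quantities are not independent. The share of counts on ribosomal protein genes was 1.377% in female non-trained library 1, against 0.881% to 0.987% in the other 4, and 1.04% in male trained library 3, against 0.945% to 0.959%. In male trained library 3, Rpl3l made up 74.19% of its pair with Rpl3, against 84.3% to 88.4%, and Rpl3 stood at 89.63 CPM, against 47.3 to 57.6 CPM. Rpl22l1 made up 41.63% of its pair in female non-trained library 1, against 28.7% to 31.0%. Rps27l made up 24.79% of its pair in male trained library 1, against 19.5% to 20.9%. Library 4 of the non-trained males had 495.9 CPM of Rplp0, where its group otherwise had 444 to 459 CPM.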

How the results depend on the processing

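The count of members lower in non-trained males was 1 (Rps6). It was 3 with DESeq2 (Rps6, Rps12 and Rplp0), which called 1424 genes in all here, against 818 by edgeR. It was 2 (Rps6 and Rplp0) with RLE factors, with TMM computed without ribosomal protein and mitochondrial DNA genes, without the filter and with the stricter filter. The main fit called 5.21% of all genes here, and the share is not given for these other settings. It was 0 with only the groups compared (Rps6 at adjusted p = 0.068) and 0 with copies summed (830 genes called in all). It was also 0 with copies summed and female non-trained library 1 left out (595 genes called in all). Leaving out each library in turn gave 1 to 4, the 4 without female non-trained library 3 or 5, and Rps6 stayed called in all 10 (adjusted p 0.0058 to 0.048). Without female non-trained library 1 it was 1, where 3.7% of all genes were called. Among trained libraries the count of 0, where 5.6% of all genes were called, became 1 (Rplp0) with only the groups compared. It was 0 to 1 with each library left out, and the 1 came without female non-trained library 1, where 7.76% of all genes were called. It was 2 (Rplp0 and Rpl26) with copies summed and library 1 left out. That fit called 1257 genes in all, against 880 in the main fit. Training gave 0 calls among the members under every setting, and 0 of 24 paralogue ratios passed under any.

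Leaving out a library moved the median for training in females between -0.08 and 0.15, for the interaction between -0.05 and 0.16, and for sex without training between -0.27 and -0.05, each at one end without female non-trained library 1. No value past the threshold changed sign. No paired analysis was possible because the labels give each library its own number and no shared animal, day or batch. The part of depth in the members' values was not tested, nor how many reads placed on copies came from the parent genes.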
